A study of Mus musculus with 6 samples.

Results

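Genes of DNA replication and mitosis were compared between mouse B-lineage leukaemias that either lack or keep AID, the activation-induced cytidine deaminase of B cells. The leukaemias are driven by BCR-ABL1, a kinase made by the Philadelphia chromosome fusion. The 42 genes were listed by name, 22 of them for replication and 20 for mitosis. Each was read by the probe set annotated to it alone that had the highest mean over all 6 arrays. This gave values for 41 of the 42, all except the cyclin gene Ccnb1, which was not analysed here, out of 18193 genes in all. Total RNA of leukaemia cells was hybridised to 3 arrays of AID-/- leukaemia and 3 arrays of AID+/+ leukaemia, both of the Balb/c strain, and all 6 carried the BCR-ABL1 oncogene according to the title of the series. The labels give no age, no treatment and no way in which BCR-ABL1 was introduced, and do not state that the 3 samples called biological replicates in a group are from different mice. The p-values therefore measure only the spread between these samples, which may be technical.

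A cell copies its genome after loading the MCM helicase on replication origins in G1, a step called licensing that needs CDC6 and CDT1 and is limited by geminin. Cyclin-dependent kinases then fire the origins in S phase and, as cyclin B with CDK1, drive the cell into mitosis, where a spindle checkpoint holds the anaphase-promoting complex back until all chromosomes are attached. Transcripts for replication peak around the G1/S transition under E2F factors, and those for mitosis peak in G2 and M under the complexes that hold B-MYB and FOXM1. In a bulk sample, fewer cycling cells and less RNA per cycling cell cannot be told apart.

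The split between replication and mitosis was visible in the promoters of the members. RefSeq promoter windows of the GRCm38.p6 assembly, from 250 bases before to 50 bases after the start, were matched for 32 of the 41 measured genes. They were searched on both strands for the cell cycle genes homology region (CHR, written TTTGAA or TTCGAA), for the NF-Y box CCAAT and for an E2F word (TTTCGCGC, TTTGGCGC, TTTCCCGC or TTTGCCGC). No word of one kind lies inside a word of another, though neighbouring matches can overlap. A CHR word was found in 12 of 14 mitosis genes (85.7%), in 4 of 18 replication genes (22.2%) and in 21.7% of the 27025 genes with a window. An E2F word was found in 9 of 18 replication genes (50%), in 1 of 14 mitosis genes (7.14%), which was Cdk1, and in 2.60% of all genes with a window. CCAAT was found in 12 of 14 mitosis genes and in 12 of 18 replication genes (66.7%), against 41.1% of all genes. All 12 mitosis genes with a CHR word also held CCAAT, a pair present in 8.61% of all genes. These letters are a description of the windows and not a measure of binding.

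The 250 bases before the start are shown for 6 members, chosen to set genes that passed the test beside genes of the same role, with CHR, CCAAT and E2F words in capitals. They come from the RefSeq reference and not from the Balb/c samples. Ube2c and Cdc20 act together at the anaphase-promoting complex, Bub1 and Bub1b act in the spindle checkpoint, and Cdt1 and Mcm6 act in origin licensing.
Ube2c, chr2:164769679-164769928, plus strand: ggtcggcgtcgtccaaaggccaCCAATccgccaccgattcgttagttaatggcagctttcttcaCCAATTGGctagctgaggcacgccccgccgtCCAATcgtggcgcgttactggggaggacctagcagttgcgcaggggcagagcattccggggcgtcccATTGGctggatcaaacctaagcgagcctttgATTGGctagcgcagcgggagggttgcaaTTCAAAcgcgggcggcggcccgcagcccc
Cdc20, chr4:118437344-118437593, minus strand: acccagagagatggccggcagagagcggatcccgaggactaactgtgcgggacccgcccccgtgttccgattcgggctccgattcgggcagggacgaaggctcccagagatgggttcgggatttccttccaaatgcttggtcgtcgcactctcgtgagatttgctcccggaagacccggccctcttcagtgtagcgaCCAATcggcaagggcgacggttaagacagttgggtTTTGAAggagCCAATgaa
Bub1, chr2:127831860-127832109, minus strand: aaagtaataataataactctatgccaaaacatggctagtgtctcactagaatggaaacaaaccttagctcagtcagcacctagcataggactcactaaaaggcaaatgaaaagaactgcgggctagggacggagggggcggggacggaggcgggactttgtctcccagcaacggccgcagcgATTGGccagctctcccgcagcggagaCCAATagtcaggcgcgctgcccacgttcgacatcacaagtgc
Bub1b, chr2:118597961-118598210, plus strand: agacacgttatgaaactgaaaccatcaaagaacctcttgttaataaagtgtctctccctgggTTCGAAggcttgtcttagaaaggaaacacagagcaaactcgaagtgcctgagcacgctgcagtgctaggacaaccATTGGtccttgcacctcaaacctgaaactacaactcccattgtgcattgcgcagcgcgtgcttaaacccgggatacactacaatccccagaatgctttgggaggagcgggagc
Cdt1, chr8:122567765-122568014, plus strand: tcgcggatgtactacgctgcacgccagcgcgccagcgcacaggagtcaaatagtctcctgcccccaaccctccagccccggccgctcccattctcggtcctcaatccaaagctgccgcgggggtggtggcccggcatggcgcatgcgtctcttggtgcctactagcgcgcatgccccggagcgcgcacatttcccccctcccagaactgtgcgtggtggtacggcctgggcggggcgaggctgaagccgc
Mcm6, chr1:128359706-128359955, minus strand: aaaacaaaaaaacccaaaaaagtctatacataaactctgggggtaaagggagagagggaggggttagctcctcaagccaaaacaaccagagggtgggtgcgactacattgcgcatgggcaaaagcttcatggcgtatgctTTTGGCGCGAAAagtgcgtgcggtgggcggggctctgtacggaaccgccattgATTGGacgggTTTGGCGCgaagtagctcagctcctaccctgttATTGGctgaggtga
Ube2c held 6 CCAAT matches, of which 2 overlap, and 1 CHR word that began 29 bases before the start. Cdc20 held 2 CCAAT matches and 1 CHR word 18 bases before the start. Bub1 held 2 CCAAT matches here and its CHR word at base 15 after the start, while Bub1b held 1 CHR word 188 bases before the start and another at base 41 after it. Cdt1 held no match in the bases shown and 1 E2F word at base 33 after the start. Mcm6 held 3 E2F words, of which 2 overlap, and 2 CCAAT matches. The promoter window of Tk1 held none of these words.

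Replication and mitosis genes differed in both directions between the leukaemias, with a median difference near 0. Only Ube2c among the 41 measured members passed the test as higher in AID-/- leukaemia. Lower were 5 members (Cdt1, Tk1, Cdc25c, Bub1 and Bub1b), and the other 35 did not pass. The test was limma's, fitted over all 18193 genes, with p-values adjusted by Benjamini and Hochberg's method and called under 0.05. Over all genes 18.5% were called, 10.1% higher and 8.42% lower, against 14.6% of members. Most members lie among the 3630 genes with the highest means, of which 27.5% were called, so the members' share was below both backgrounds; the difference in shares was not tested. The median difference, AID-/- minus AID+/+ on the log2 scale, was -0.02 for the 22 replication members and 0.00 for the 19 mitosis members, against -0.03 for all genes. Of the members 20 differed in the positive and 21 in the negative direction. Regardless of direction, the median size of the difference was 0.1648 for members. It was 0.1545 for all genes and 0.2063 for the 3630 genes with the highest means. Both calls among replication members were lower (9.09% called), while the 4 calls among mitosis members (21.1%) were 1 higher and 3 lower. The mitosis count fell from 4 to 2 and the count of lower members from 5 to 3 whichever array was left out, because Bub1 and Bub1b no longer passed. Calls over all genes fell in these fits too, from 3371 to between 2142 and 3214.

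The precision was high enough to bound most members closely. The 95% interval of the difference lay within a 2-fold change, or 1 log2 unit either way, for 39 of 41 members, against 90.1% of all genes. It lay within a 1.5-fold change for 31 members (75.6%), against 73.7% of all genes. Of these members 29 were among the 35 that did not pass. Among those 35 the differences ran from -0.60 for Foxm1 to 0.52 for E2f2. The interval of Foxm1 alone among them reached past 1 log2 unit, to -1.07.

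**Figure D1:**
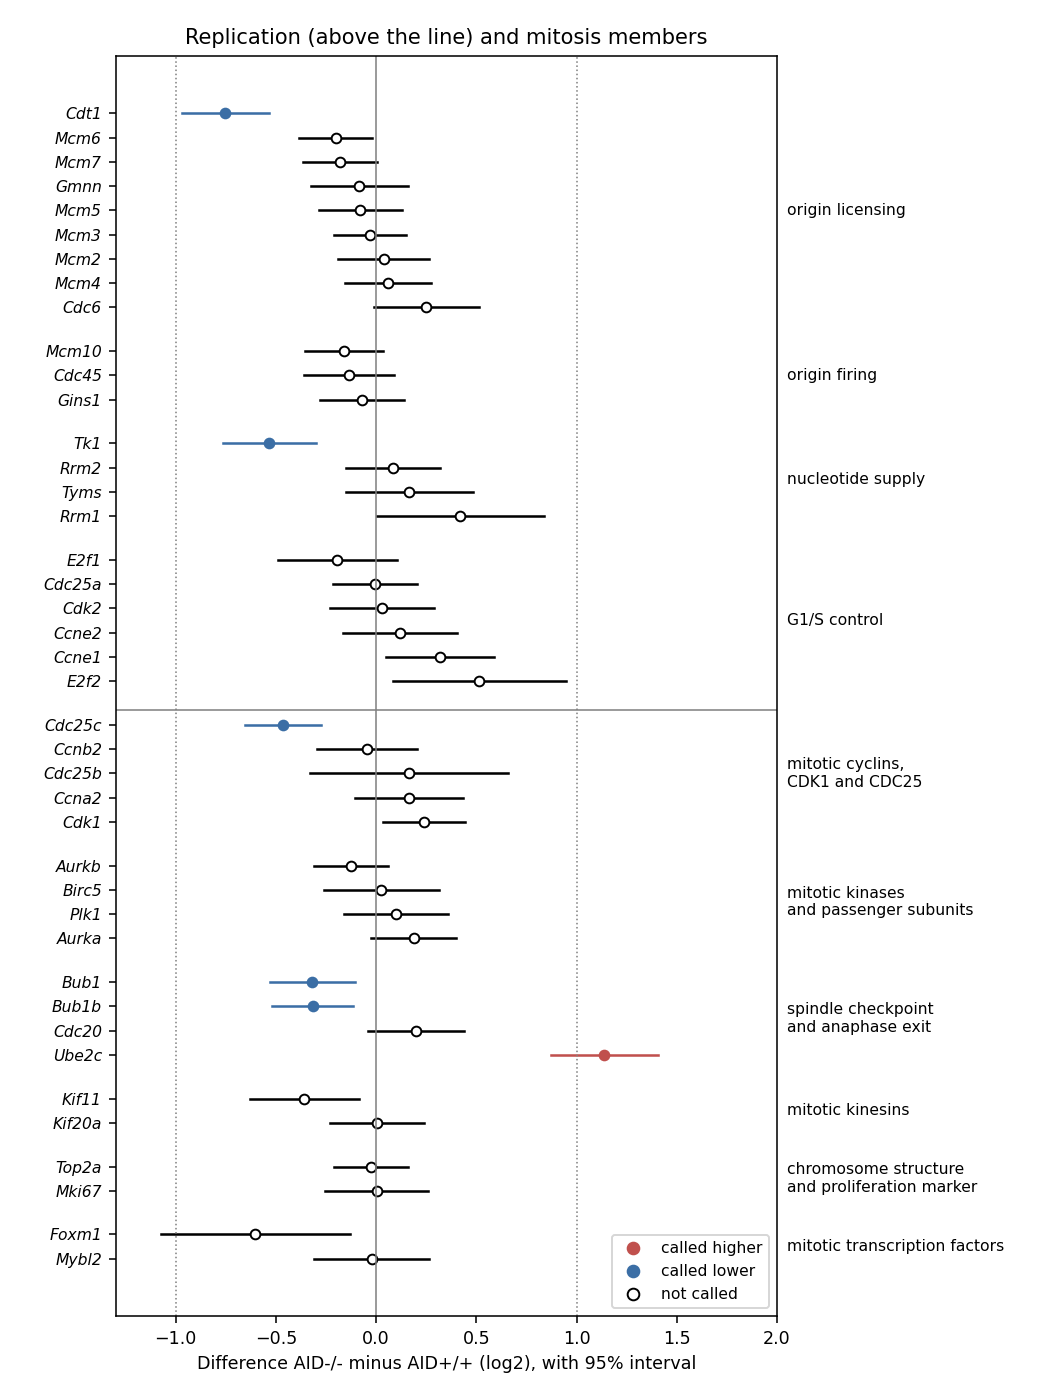
Difference of each of the 41 measured members, AID-/- minus AID+/+ on the log2 scale (x axis), with the 95% interval of limma's fit, grouped by role with replication above the line and mitosis below; dotted lines mark a 2-fold change. Ube2c is the only filled point to the right, Cdt1, Tk1, Cdc25c, Bub1 and Bub1b are the filled points to the left, and most intervals lie inside the dotted lines.

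The leukaemias also differed in markers that are not part of the cell cycle. Xist, the RNA of the inactive X chromosome in female cells, was at 4.35 to 6.02 in the AID-/- arrays and 11.93 to 12.18 in the AID+/+ arrays, while the Y-linked genes Kdm5d and Uty were at 7.62 to 7.74 and 6.07 to 6.41 in AID-/- arrays and at 2.42 to 2.68 and 2.54 to 2.75 in AID+/+ arrays. By these 3 genes the sex of the samples moves with their AID genotype and the 2 cannot be told apart. A further Y-linked gene, Eif2s3y, was at 8.85, 3.67 and 2.71 in the AID-/- arrays and 2.51 to 2.59 in the AID+/+ arrays, so it was high in AID-/- replicate 1 only and did not pass (limma adjusted p = 0.264). Of 7 measured B-lineage markers 1 was higher (Blnk) and 6 did not pass, with their mean level at 11.5 to 11.7 in AID-/- and 11.2 to 11.4 in AID+/+ arrays. Of 25 measured markers of T cells, NK cells, myeloid, erythroid, stromal and endothelial cells only the myeloid gene Lyz2 passed, higher by 0.76 (SE 0.21, limma adjusted p = 0.0436). The myeloid gene Itgam was at 4.03, 3.64 and 5.54 in AID-/- and 3.58, 3.16 and 3.31 in AID+/+ arrays. It did not pass (limma adjusted p = 0.139), and the other 6 myeloid markers leaned lower. The mean level of the 8 myeloid markers was 4.19 to 4.31 in AID-/- and 4.10 to 4.42 in AID+/+ arrays, and that of the 5 T cell markers was 4.69 to 4.74 and 4.73 to 4.82. For the 3 NK cell, 4 erythroid and 5 stromal and endothelial markers it was 3.73 to 3.86, 4.48 to 4.64 and 4.29 to 4.47 in AID-/- arrays, and 3.97 to 4.16, 4.51 to 4.72 and 4.41 to 4.44 in AID+/+ arrays. The median of all probe sets was 4.85 to 4.90 on each array. The part of other cell types and of sex in the differences below was not tested.

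Origin licensing genes held the largest decrease of all members. Cdt1, which loads the MCM helicase together with CDC6, was at 10.96, 10.74 and 10.94 in the AID-/- arrays and at 11.66, 11.67 and 11.57 in the AID+/+ arrays. Every AID-/- array lay below every AID+/+ array, by far more than the spread within either group. Cdt1 fell by 0.75 (SE 0.09, 1.68-fold, limma adjusted p = 0.00136). Its second probe set fell by 0.75 as well, and a further probe set near the floor of the scale differed by -0.02. The call held in every fit with 1 array left out, with differences from -0.79 to -0.68.

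Geminin, the inhibitor of CDT1 encoded by Gmnn, was at 10.77, 10.72 and 10.86 in AID-/- and 10.74, 11.04 and 10.81 in AID+/+ leukaemia, and its groups overlapped. The difference of -0.08 (SE 0.10) did not pass, with a 95% interval from -0.32 to 0.16. Cdc6, the other loading factor, was at 10.06, 9.89 and 10.10 against 9.61, 9.95 and 9.74. It leaned the opposite way from Cdt1, at 0.25 (SE 0.11, limma adjusted p = 0.184), with AID+/+ replicate 2 above AID-/- replicate 2.

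The 6 subunits of the MCM helicase differed by -0.20 to 0.06, and 0 of 6 passed. Mcm6 and Mcm7 were the only subunits whose groups did not overlap, a pattern seen in 36.5% of all genes. Mcm6 was at 12.06, 12.12 and 12.12 in AID-/- and 12.33, 12.32 and 12.26 in AID+/+ leukaemia, a difference of -0.20 (SE 0.08, limma adjusted p = 0.123). Mcm7 was at 12.49, 12.45 and 12.58 against 12.69, 12.70 and 12.67, and differed by -0.18 (SE 0.08, limma adjusted p = 0.177). All 4 probe sets of Mcm7 and all 3 of Mcm6 leaned lower in AID-/- leukaemia, by 0.18 to 0.33 and by 0.14 to 0.32 on the log2 scale. Among the alternatives, Mcm6 passed as lower with an intensity trend and without variance moderation. Mcm7 passed as lower with an intensity trend and with the mean of all probe sets. Neither gene passed under the other alternatives. The intervals of Mcm2, Mcm3, Mcm4 and Mcm5 ran from -0.28 at the lowest to 0.28 at the highest.

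Origin firing genes, which turn the loaded MCM ring into an active helicase, did not pass. Cdc45, Gins1 and Mcm10 differed by -0.13, -0.07 and -0.16. For Mcm10, a factor needed to activate the helicase, the arrays were at 9.58, 9.48 and 9.55 in AID-/- and 9.65, 9.78 and 9.66 in AID+/+ leukaemia. These groups did not overlap, and the difference did not pass (SE 0.08, limma adjusted p = 0.250).

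Of 4 nucleotide supply genes only Tk1 passed. Tk1, the thymidine kinase that salvages thymidine, was at 9.41, 9.25 and 9.45 in AID-/- and 10.01, 9.93 and 9.77 in AID+/+ leukaemia. All AID-/- arrays lay below all AID+/+ arrays. Tk1 fell by 0.53 (SE 0.10, 1.45-fold, limma adjusted p = 0.00874), and kept its call in all 6 fits with 1 array left out (adjusted p up to 0.0361).

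Tyms, the thymidylate synthase that makes thymidylate anew, was at 7.24, 7.04 and 7.32 against 7.30, 6.96 and 6.84 and did not pass (0.17, SE 0.14). Rrm1, the large subunit of ribonucleotide reductase, was at 11.43, 12.16 and 11.55 in AID-/- and 11.35, 11.31 and 11.23 in AID+/+ leukaemia. The groups did not overlap, but AID-/- replicate 2 stood above its group. Rrm1 differed by 0.42 (SE 0.18, limma adjusted p = 0.160) with that array and by 0.20 (adjusted p = 0.264) without it. Replicate 2 was also the highest AID-/- array at the other 2 probe sets of Rrm1. Rrm2, the small subunit whose level follows S phase, differed by 0.08 (SE 0.10), with an interval from -0.15 to 0.32.

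Of 6 G1/S control genes 0 passed, and 4 differed in the positive direction. Ccne1, which encodes cyclin E1, the partner of CDK2 at S phase entry, was at 8.93, 9.20 and 8.78 in AID-/- and 8.63, 8.66 and 8.66 in AID+/+ leukaemia. The AID+/+ arrays were nearly equal and all lay below the AID-/- arrays. The difference was 0.32 (SE 0.12, limma adjusted p = 0.103) at this probe set, whose name ending in _x_at marks probes that can match other transcripts. At the other probe set of Ccne1 the AID-/- arrays were at 8.09, 8.31 and 8.39 and the AID+/+ arrays at 7.75, 7.38 and 7.35. That probe set was higher by 0.77 (SE 0.14, limma adjusted p = 0.00687 over all probe sets). Ccne1 was therefore called or not depending on the probe set that stood for it, with the same direction at both.

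E2f2, a transcription factor of S phase genes, was at 9.73, 9.70 and 10.11 against 9.73, 9.10 and 9.17. AID+/+ replicate 1 overlapped the AID-/- arrays. The difference of 0.52 (SE 0.19) did not pass (limma adjusted p = 0.101), but without AID+/+ replicate 1 it was 0.72 and passed (adjusted p = 0.0231). Its other probe set differed by 0.03. E2f1, a related activator, differed by -0.19 (SE 0.13), and all 3 of its probe sets leaned the same way. Ccne2, Cdk2 and Cdc25a, the phosphatase that activates CDK2, differed by 0.12, 0.03 and -0.01.

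**Figure D2:**
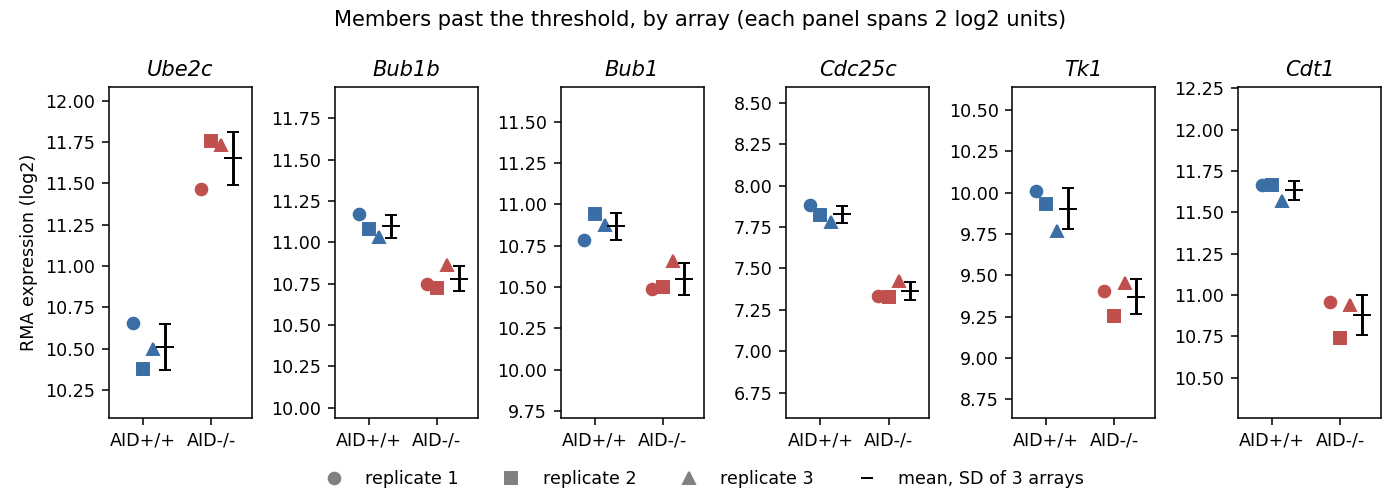
RMA expression on the log2 scale (y axis) of the 6 members past the threshold in each array of AID+/+ (blue) and AID-/- (red) leukaemia, with the mean and SD of 3 arrays as a black bar; marker shapes give the replicate number and each panel spans 2 log2 units. The groups do not overlap in any panel, with the widest gap for Ube2c and the narrowest for Bub1 and Bub1b.

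Of 5 measured genes of mitotic entry only Cdc25c passed. Cdc25c, a phosphatase that removes inhibitory phosphates from CDK1, was at 7.34, 7.33 and 7.42 in AID-/- and 7.88, 7.82 and 7.78 in AID+/+ leukaemia. The arrays of a group spanned 0.09 in AID-/- and 0.10 in AID+/+ leukaemia, and the groups did not overlap. Cdc25c fell by 0.46 (SE 0.08, 1.38-fold, limma adjusted p = 0.00630), and its second probe set fell by 0.57. The probe set used is of the _x_at kind, and the call held without such probe sets. Cdk1 itself was at 11.04, 11.16 and 11.19 against 10.87, 10.99 and 10.83. These groups did not overlap either, in the opposite direction, and the difference of 0.24 (SE 0.09) did not pass (limma adjusted p = 0.108).

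The mitotic cyclin genes Ccna2 and Ccnb2 differed by 0.17 (SE 0.12) and -0.05 (SE 0.11). Their AID-/- arrays lay at 11.32 to 11.44 and 11.32 to 11.61, and their AID+/+ arrays at 11.06 to 11.44 and 11.39 to 11.60. Cdc25b, another CDK1-activating phosphatase, had the largest standard error of all members, with arrays from 9.20 to 9.88 in AID-/- and 8.97 to 9.64 in AID+/+ leukaemia. Its difference of 0.16 (SE 0.21) has an interval from -0.33 to 0.66.

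The mitotic kinases and their partners did not pass. Aurka, the centrosomal Aurora kinase, was at 9.92, 10.07 and 10.14 in AID-/- and 9.87, 9.91 and 9.79 in AID+/+ leukaemia, a difference of 0.19 (SE 0.09, limma adjusted p = 0.219). Aurkb, the kinase of the chromosomal passenger complex, was at 10.38, 10.40 and 10.47 against 10.59, 10.52 and 10.51. The groups of Aurka did not overlap, with a gap of 0.0115 between them. Those of Aurkb did not overlap either, in the opposite direction, with a gap of 0.0415. Aurkb differed by -0.12 (SE 0.08, limma adjusted p = 0.351). Birc5, which encodes survivin, another subunit of that complex, differed by 0.03 (SE 0.12), and Plk1, the Polo-like kinase, by 0.10 (SE 0.11). All 4 intervals lay within a 1.5-fold change.

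The spindle checkpoint and anaphase genes held the only member called higher and the 2 calls that were lost whichever array was left out. Ube2c, the E2 enzyme that hands ubiquitin to the anaphase-promoting complex, was at 11.47, 11.75 and 11.73 in AID-/- and 10.66, 10.38 and 10.50 in AID+/+ leukaemia. The lowest AID-/- array lay 0.81 above the highest AID+/+ array. Ube2c rose by 1.14 (SE 0.12), or 2.20-fold, with a 95% interval from 0.87 to 1.41 (limma adjusted p = 0.000532). It was the only member that differed by at least 1 log2 unit, against 969 of all 18193 genes. Ube2c was read by a single probe set, so no other probe set could be set beside it. It passed under all 19 alternatives, higher by 1.07 to 1.23.

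Cdc20, the activator of the same complex, whose promoter above likewise held CCAAT and CHR words, was at 12.06, 11.74 and 11.88 against 11.70, 11.75 and 11.63. The groups overlapped at this probe set. The difference of 0.20 (SE 0.10) did not pass (limma adjusted p = 0.246), and all 3 of its probe sets leaned higher, by 0.19 to 0.32. The intervals of Cdc20 and Ube2c, -0.04 to 0.44 and 0.87 to 1.41, do not overlap; the difference between the genes was not tested.

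Bub1, a kinetochore kinase of the checkpoint, was at 10.49, 10.50 and 10.66 in AID-/- and 10.78, 10.94 and 10.88 in AID+/+ leukaemia. Bub1b, which encodes BUBR1, an inhibitor of the anaphase-promoting complex, was at 10.75, 10.72 and 10.86 against 11.17, 11.08 and 11.03. Neither pair of groups overlapped, but the gaps between them were 0.125 and 0.17. Both fell by 0.32 (SE 0.09 each, 1.25-fold each), with limma adjusted p of 0.0466 and 0.0389. Both calls were lost whichever array was left out, with adjusted p up to 0.139 for Bub1 and 0.111 for Bub1b, and with the arrays centred on their medians (0.0596 and 0.0585). The other probe set of Bub1 differed by 0.09, and those of Bub1b by -0.21 and 0.08.

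Of the kinesin, chromosome and proliferation marker genes 0 of 4 passed. Kif11, the kinesin that pushes the spindle poles apart, was at 9.995, 9.79 and 9.96 in AID-/- and 10.18, 10.49 and 10.15 in AID+/+ leukaemia. The groups did not overlap, and the difference of -0.36 (SE 0.12) did not pass (limma adjusted p = 0.0739). Its other probe sets differed by -0.16 and -0.07.

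Kif20a, a kinesin of cytokinesis, differed by 0.00 (SE 0.10). Top2a, the topoisomerase that untangles sister chromosomes, was at 12.23, 12.25 and 12.35 against 12.30, 12.31 and 12.30, a difference of -0.02 (SE 0.08). A second probe set of Top2a was at 8.69, 8.62 and 8.96 against 9.14, 9.25 and 9.05. Its groups did not overlap, and it differed by -0.39 (SE 0.12, limma adjusted p = 0.0604 over all probe sets), while the dimmest differed by -0.25 (SE 0.12). Mki67, which encodes the proliferation marker Ki-67, was at 11.73, 11.65 and 11.96 in AID-/- and 11.77, 11.90 and 11.67 in AID+/+ leukaemia. Its groups overlapped fully and the difference of 0.00 (SE 0.11) has an interval from -0.25 to 0.26.

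The mitotic transcription factors differed in their spread. Foxm1, an activator of G2 and M genes, was at 8.42, 8.51 and 8.48 in AID-/- and 9.60, 8.80 and 8.82 in AID+/+ leukaemia. AID+/+ replicate 1 stood 0.784 above the next array, and the other two AID+/+ arrays still lay above all AID-/- arrays. The difference was -0.60 (SE 0.20, limma adjusted p = 0.0814), and -0.34 (adjusted p = 0.0517) without AID+/+ replicate 1. The same array was the highest at the other 3 probe sets of Foxm1 too, among the AID+/+ arrays, and those probe sets differed by -0.50 to -0.14. Mybl2, which encodes B-MYB, differed by -0.02 (SE 0.12) at its brightest probe set and by -0.52 (SE 0.18, limma adjusted p = 0.102 over all probe sets) at the other.

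The groups did not overlap for 16 of 41 members, or 39.0%, against 36.5% of all genes and 52.9% of the 3630 genes with the highest means. The AID-/- arrays were lower in 11 of these 16 (68.8%) and higher in 5. Among non-overlapping genes, 52.1% were lower over all genes and 42.5% over the 3630 genes with the highest means, and the difference in direction was not tested. Lower ones numbered 5 of 7 among replication and 6 of 9 among mitosis members. Of the 16, 6 passed the test, and the other 10 differed by 0.12 to 0.60 in either direction.

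The differences were set beside the promoter words as a description. The 16 members with a CHR word had a median difference of 0.02 and ran from -0.36 to 1.14, and the 16 with a window but no CHR word had a median of -0.01 and ran from -0.75 to 0.42. The 10 members with an E2F word had a median of -0.02, and the 22 without one 0.01. Ube2c, Bub1 and Bub1b all held a CHR word and CCAAT, and passed in opposite directions.

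Within each group many members were high or low in the same array. In AID-/- leukaemia, replicate 3 was the highest of the 3 arrays for 24 of 41 members (58.5%) and the lowest for 1 (2.44%). Over all genes the same array was highest for 34.7% and lowest for 26.4%. In AID+/+ leukaemia, replicate 3 was the highest for 0 of 41 members, against 34.3% of all genes, and the lowest for 23 (56.1%), against 24.9%. Among the 3630 genes with the highest means, where most members lie, these 2 arrays were highest for 43.5% and 22.9% and lowest for 14.4% and 25.2%.

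The shifts behind this order were small. The median deviation of the 22 replication members from their group mean was 0.06 in AID-/- replicate 3 and -0.05 in AID+/+ replicate 3, and for the 19 mitosis members it was 0.06 and -0.06. For the 3630 genes with the highest means it was 0.035 and -0.002 in these arrays, and for all genes 0.013 and 0.012. Replication members were highest in AID+/+ replicate 2, at 0.06 above the group mean, and mitosis members in AID+/+ replicate 1, at 0.05 above it. In AID-/- leukaemia both classes were highest in the same array. With AID-/- replicate 3 left out, the median difference of all members was -0.04, and with AID+/+ replicate 3 left out it was -0.05, against -0.01 with all arrays.

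**Figure D3:**
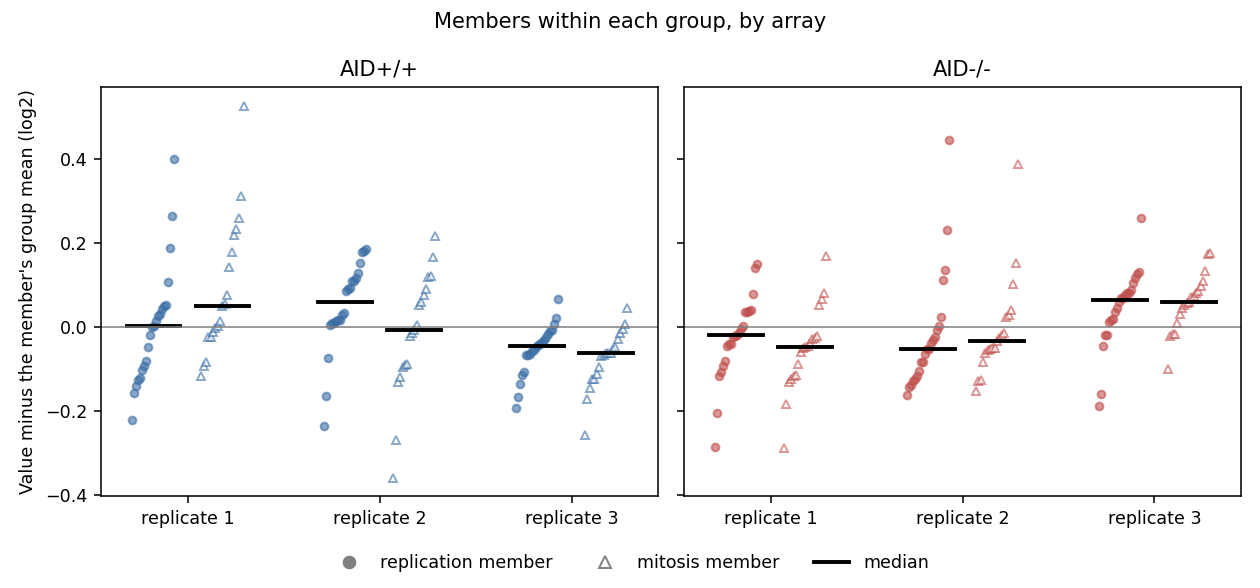
Value of each member minus its own group mean on the log2 scale (y axis) in each array, with filled circles for the 22 replication members, open triangles for the 19 mitosis members and black bars for medians. Both classes sit above 0 in AID-/- replicate 3 and below 0 in AID+/+ replicate 3, where the medians of replication and mitosis members are -0.05 and -0.06.

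The members were read by 91 probe sets in all, and 29 of the 41 had more than 1. All probe sets leaned the same way for 20 of these 29. Of the 91 probe sets, 4 were called higher and 5 lower when p-values were adjusted over all 45037 probe sets, of which 14.6% were called. Those called lower read Cdt1 and Cdc25c (2 each) and Tk1, and those called higher read Ube2c, Ccne1, Tyms and Mcm5. For Bub1 and Bub1b this wider adjustment gave limma adjusted p of 0.0613 and 0.0527 at the same probe sets.

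The called probe set of Mcm5 had the opposite sign to the brightest one, and that of Tyms the same sign with a larger difference. That probe set of Tyms was at 5.41, 5.26 and 5.04 in AID-/- and 4.29, 4.38 and 3.94 in AID+/+ leukaemia, higher by 1.04 (SE 0.14, limma adjusted p = 0.00234). The 2 dimmest probe sets of Tyms differed by -0.39 and -0.05, and the brightest by 0.17. The dimmest of 3 probe sets of Mcm5 was higher by 0.40 (SE 0.11, limma adjusted p = 0.0474), while its 2 brighter ones differed by -0.08 and -0.14. Of the 91 probe sets 12 had a mean below that of the median probe set.

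**Figure D4:**
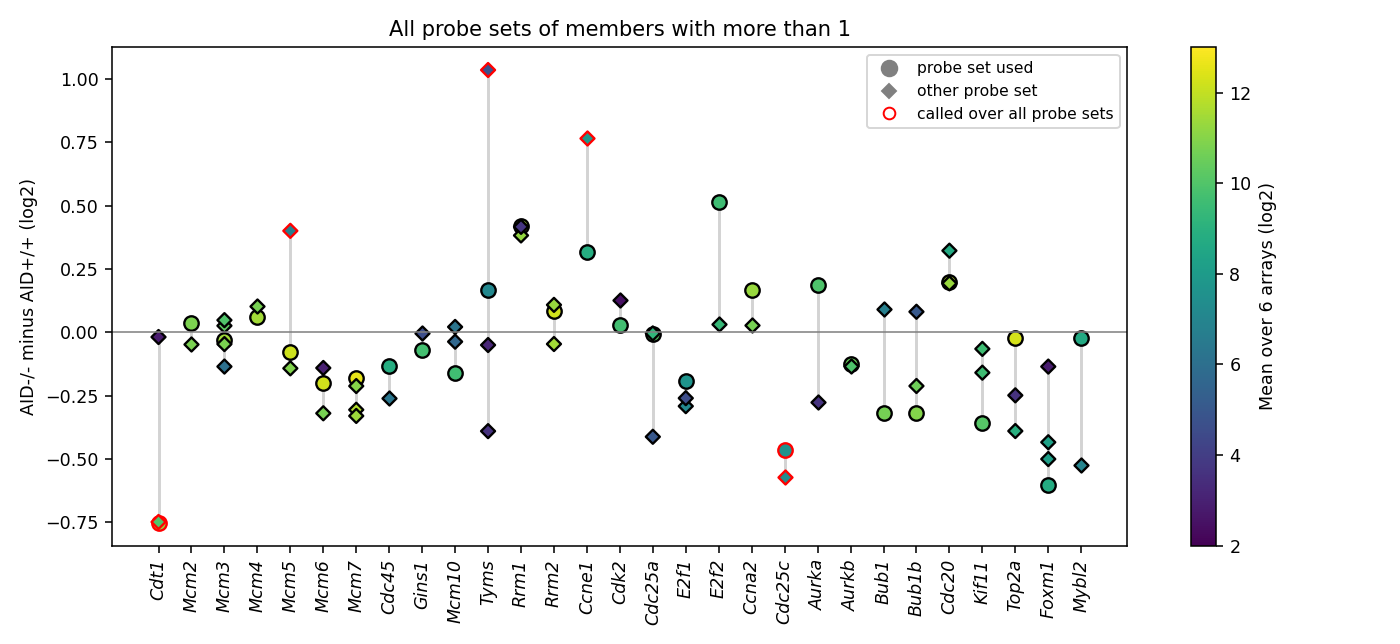
Difference AID-/- minus AID+/+ on the log2 scale (y axis) at every probe set of the 29 members with more than 1, with the probe set used as a circle, the others as diamonds, colour for the mean log2 value over 6 arrays and a red edge for an adjusted p under 0.05 over all probe sets. Cdt1 and Cdc25c have red-edged points only below 0 and Ccne1 above 0, while the probe sets of Tyms and Mcm5 spread to both sides of 0.

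Other genes of the same machinery were counted from a list of 46 replication and 63 mitosis genes. Among 44 measured replication genes 8 were lower in AID-/- leukaemia, 4 higher, and 32 not called, which is 27.3% called against 18.5% of all genes and 27.5% of the 3630 genes with the highest means. The groups did not overlap for 27 of the 44 (61.4%), against 36.5% of all genes and 52.9% of those 3630 genes. Without AID+/+ replicate 3 the calls fell from 12 to 6, while calls over all genes fell from 3371 to 2142. The largest difference was that of Pole2, a subunit of the leading-strand polymerase epsilon, at 10.21, 10.20 and 10.27 in AID-/- and 11.51, 11.78 and 11.93 in AID+/+ leukaemia. Pole2 fell by 1.51 (SE 0.12, 2.85-fold, limma adjusted p = 0.000119).

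Also lower were Topbp1, an activator of origin firing and of the ATR kinase, by 0.65 (SE 0.08), and its origin-firing partner Ticrr, by 0.55 (SE 0.08). The higher replication genes included Orc1, the largest subunit of the origin recognition complex, at 8.05, 7.88 and 7.91 against 7.21, 7.47 and 7.34. Orc1 rose by 0.61 (SE 0.10, limma adjusted p = 0.00464), Prim2, a primase subunit, rose by 0.53 (SE 0.12), and Rpa3, a subunit of the single-strand binding protein RPA, rose by 0.45 (SE 0.10). Pcna, the sliding clamp, differed by 0.09 (SE 0.09) and was chosen after its values were seen.

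Among the 63 other mitosis genes 5 were lower, 1 higher and 57 not called, which is 9.52% called against 18.5% of all genes and 27.5% of the 3630 genes with the highest means. The groups did not overlap for 19 of the 63 (30.2%), against 36.5% of all genes and 52.9% of those 3630 genes. The median difference was -0.10, and 47 of the 63 (74.6%) differed in the negative direction, against 56.1% of all genes and 44.7% of the genes with the highest means. Calls numbered 2 without AID+/+ replicate 2 and 3 without AID+/+ replicate 3. Calls over all genes fell from 3371 to 2426 and 2142 in these fits. Pkmyt1, the kinase that adds inhibitory phosphates to CDK1, fell by 0.64 (SE 0.11, limma adjusted p = 0.00559). It thus moved the same way as Cdc25c, which removes them. Ndc80, the microtubule-binding subunit of the kinetochore, fell by 0.56 (SE 0.12), and Ncapd3, a condensin subunit, fell by 0.44 (SE 0.09). The higher gene was Anln, which encodes anillin, a scaffold of the cytokinetic ring, at 9.44, 9.17 and 9.43 against 8.59, 9.06 and 8.73 (higher by 0.56, SE 0.14, limma adjusted p = 0.0278).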

How the data were processed

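Total RNA from leukaemia cells was purified on columns and labelled for Affymetrix arrays, per the labels' protocols. The deposited values are log2 expression per probe set, 1 column per array, and the submitters' processing notes list RMA and Partek, with no version given. RMA subtracts background, brings arrays to a common distribution and combines the probes of a set. No detection calls or scanner files were used here, so low values have little order, and the number of arrays limits the precision.

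Of 45101 probe sets 64 controls were left out. Annotation gave 34945 probe sets 1 symbol, 932 several and 9160 none, and 34741 were updated through Entrez identifiers. The probe set with the highest mean stood for each gene. The fit used limma 3.58.1 (R 4.3.3), with group as its sole term, two-sided tests and p-values adjusted over 18193 genes, and was tested on simulated data. The members and lists were chosen with earlier results of these data known. Members past the threshold, members whose groups did not overlap and the member with the smallest p in each role are given array by array, and of the other pathway genes the 3 with the smallest p in each direction are named. Alternatives covered scaling, moderation, array weights, the choice of probe set, dim genes, thresholds, the replicate block and leaving out each array.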

Additional observations from a re-analysis of the deposited data

How the results depend on the processing

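Ube2c, Cdt1 and Cdc25c passed in the same direction under all 19 alternatives, and Tk1 in all but the one without variance moderation. The count of higher members, 1 with all arrays, was 2 with array weights, with the mean of all probe sets and without _x_at and _s_at probe sets, and 4 with the probe set of largest variance; it was 1 to 2 with 1 array left out. The count of lower members, 5 with all arrays, was 3 with median centring, without moderation, with the probe set of largest variance, with the replicate block, at a threshold of 0.01 and in each fit with 1 array left out. It was 4 with the mean of all probe sets, 6 with dim genes left out and 7 with an intensity trend or at 0.10. Replication members called, 2 in the main analysis, numbered 4 with an intensity trend, 4 with the mean of all probe sets and 5 with the probe set of largest variance (2 to 3 with 1 array left out). Mitosis members called, 4 in the main analysis, numbered 2 with median centring, without moderation, with averaged or most variable probe sets, with the replicate block, at 0.01 and in each fit with 1 array left out. They numbered 5 with dim genes left out and 6 at 0.10. Other replication genes called, 12, became 6 without moderation and 5 at 0.01 (6 to 10 with 1 array left out). They numbered 14 with quantile normalization or array weights, 15 with an intensity trend, and 17 with dim genes left out or at 0.10. Other mitosis genes called, 6, became 1 without moderation, 10 with the most variable probe set, 3 with the replicate block and 1 at 0.01 (2 to 6 with 1 array left out). They numbered 8 with dim genes left out and 9 at 0.10. Calls over all genes, 3371 in the main analysis, moved as well, to 1635 without moderation, 1755 at 0.01 and 4539 at 0.10. With 1 array left out they were 2142 to 3214. With the most variable probe set Mcm5 turned to 0.40 (limma adjusted p = 0.0486) and Bub1 to 0.094 (adjusted p = 0.748). Medians of all, replication and mitosis members stayed between -0.05 and 0.04 under every alternative. The cause of these changes was not tested, except that a stricter threshold or other probe sets change what is called by construction. The replicate block has fewer residual degrees of freedom. The deviations of same-numbered arrays from their group means had correlations of -0.05, -0.07 and 0.03. Whether these arrays were processed together was not tested. Which probe sets had signal near background was not tested, as no detection calls were used.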
